A study of Mus musculus with 6 samples.

Results

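The genes described are 10 components, inhibitors and target genes of the NF-kB transcription factors: Nfkb1, Nfkb2, Rela, Relb, Nfkbia, Nfkbie, Tnfaip3, Birc3, Bcl3 and Icam1. They were chosen by gene name, with earlier results of these data known. All 10 were found among the 21878 genes of the deposited table. RNA was sequenced from NIH3T3 cells, an immortalised mouse embryo fibroblast line, that had a radiation injury. One group of 3 libraries came from cells treated with exosomes, which the series title describes as derived from plasma, and the other group of 3 came from cells given PBS, each at 72 h. Both groups carry the injury, so the comparison is exosomes against PBS within injured cells; an uninjured group was not analysed here. The labels give neither the radiation dose nor the preparation of the exosomes, and nothing in them says that replicates were grown as separate cultures. The p-values therefore set the difference between groups only against the spread of these 6 libraries within their groups, and that spread may be technical.

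NF-kB dimers are built from the products of Nfkb1 (p105, processed to p50), Nfkb2 (p100, processed to p52), Rela (p65), Relb and Rel. In resting cells, inhibitors of the IkB family hold the dimers in the cytoplasm. Signals from TNF, interleukin-1 and Toll-like receptors activate a kinase complex that marks IkB for destruction, after which the dimers enter the nucleus. Several of the genes they switch on, among them Nfkbia and Tnfaip3, encode brakes on the same pathway, so these transcripts are commonly read as a record of recent NF-kB activity. In fibroblasts the pathway is known for inducing chemokines, cytokines and adhesion molecules.

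With exosomes, the mean level of Nfkbia fell by 41.1% and that of Tnfaip3 fell by 49.8%. The subunit genes Nfkb1 and Rela were lowered by much less, and Nfkb2, Relb, Nfkbie, Birc3 and Bcl3 did not pass the test. Icam1 was below the level needed for the test and was much lower with exosomes. Levels are FPKM, fragments scaled to transcript length and library size, given as mean ± SD over n = 3 libraries. Changes are exosomes over PBS on the log2(FPKM + 1) scale ± standard error (SE), a scale that shrinks the change of weakly expressed genes. The test was limma, run on the 10274 genes that reached 1 FPKM in 3 libraries or more, and a gene was called when its Benjamini-Hochberg adjusted p was under 0.05.

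Of the 10 members, 9 were tested. By limma 4 were lowered (Nfkb1, Rela, Nfkbia and Tnfaip3), 0 were raised, also at an unadjusted p under 0.05, and 5 did not pass. Among all genes tested, 18.4% were lowered and 25.4% raised. With median ratio scaling of the libraries those calls, 1889 lowered and 2612 raised, became 2371 lowered and 2134 raised, and the same count of 4 members was lowered. The members were chosen with earlier results of these data known, and Tnfaip3 entered the test only through the PBS group, where it is high. The count of 4 is therefore a description. The count was 2 without PBS replicate 1, exosome replicate 1 or exosome replicate 2, and 3 without any of the other libraries in turn. The median change of the 9 tested members was −0.12, and that of all tested genes was 0.04. In 4 of the 9 the 3 exosome values lay below all 3 PBS values, which held for 23.5% of all tested genes, and in 0 they lay above, against 32.0%. In the authors' deposited table, 5 of the 10 members are listed as lowered at an adjusted p under 0.05, the same 4 and Icam1, and 0 as raised; over all genes with an adjusted p in that deposited table the shares were 13.5% and 12.4%.

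The libraries held 10080 to 10271 genes at 1 FPKM or more, and normalized counts, deposited by the authors as a mean per group, add up to 20341541 for PBS and 19824812 for exosomes. Of 8 fibroblast markers 7 were above 1 FPKM, with a summed level of 3586 to 3906 FPKM in PBS libraries and 4870 to 5058 in exosome libraries; Fap was under 1 FPKM in every library. Of the 7 tested, 4 rose (Col1a1, Col1a2, Col3a1 and Pdgfra) and 1 fell (Pdgfrb). Endothelial and epithelial marker lists, 6 genes each, stayed under 1 FPKM for every gene. The 12 leukocyte markers summed to 7.44 to 11.9 FPKM with PBS and 4.51 to 5.30 with exosomes. Most of that sum came from Cd14, Cd68 and Csf1r; the other 9 were under 1 FPKM in all libraries, and Tyrobp and Cd3e were among those listed at 0. Csf1r was 1.77, 0.759 and 3.22 FPKM in PBS replicates 1 to 3 and 0.381, 0.254 and 0.249 with exosomes, and Cd14 fell from 4.98 ± 1.85 to 2.61 ± 0.745 FPKM (limma adjusted p = 0.0388). Cd68 was at 1.90 ± 0.641 FPKM with PBS and 1.81 ± 0.330 with exosomes (log2 change −0.03, limma adjusted p = 0.878). The part of these markers in the results was not tested. In bulk RNA, fewer cells that express a gene and less of its RNA per cell cannot be told apart.

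By mean FPKM the members stood, with PBS, in the order Nfkb2, Nfkbia, Rela, Nfkb1, Bcl3, Relb, Nfkbie, Birc3, Tnfaip3 and Icam1. Nfkb2 and Nfkbia did not differ beyond their spread there, nor did Bcl3 and Relb. With exosomes the order was Nfkb2, Rela, Nfkb1, Nfkbia, Bcl3, Relb, Nfkbie, Birc3, Tnfaip3 and Icam1, where Bcl3 overlapped Relb and Nfkbie overlapped Birc3. Nfkbia was the member whose place in the order moved: among all tested genes its mean level stood at percentile 78.7 with PBS and 64.7 with exosomes, while Nfkb2 stood at 79.9 and 81.6. The Entrez identifiers are 18033 for Nfkb1, 18034 for Nfkb2, 19697 for Rela, 19698 for Relb, 18035 for Nfkbia, 18037 for Nfkbie, 21929 for Tnfaip3, 11796 for Birc3, 12051 for Bcl3 and 15894 for Icam1.

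**Figure D1:**
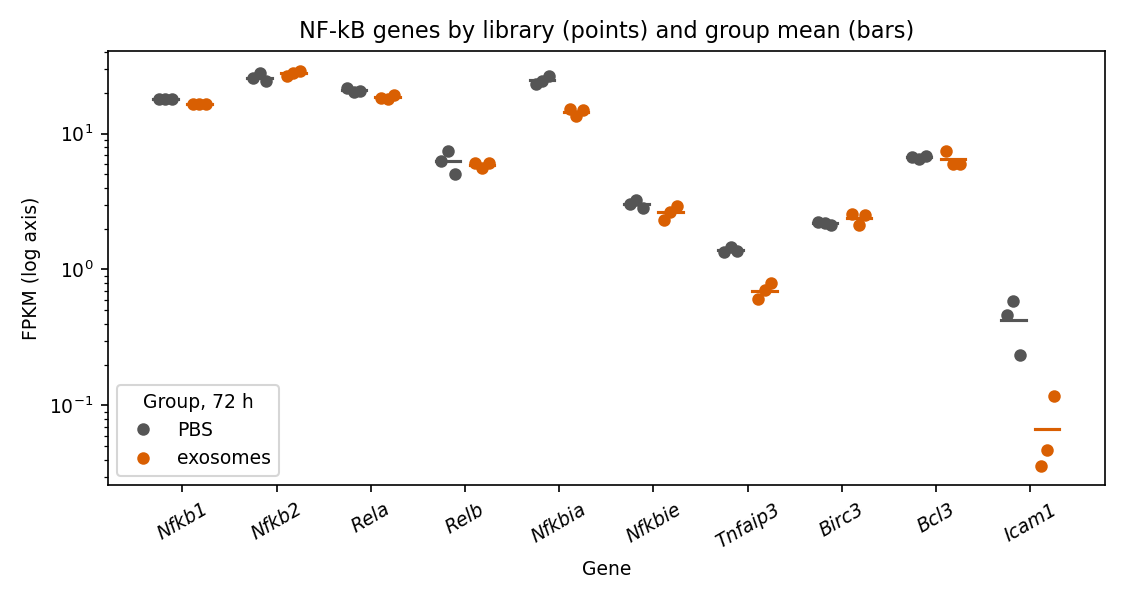
FPKM of the 10 genes on a log axis, 1 point per library, with a bar at the mean of each group of 3 libraries (grey PBS, orange exosomes, 72 h). The exosome points lie wholly below the PBS points for Nfkb1, Rela, Nfkbia, Tnfaip3 and Icam1, and overlap them for the other genes.

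The 4 subunit genes are given first. Nfkb1 encodes p105, which is cut to the DNA-binding subunit p50 and whose uncut form also acts as an IkB. It was at 17.8, 17.98 and 18.1 FPKM in PBS replicates 1 to 3 and at 16.4, 16.4 and 16.5 with exosomes. The replicates of each group were within a few per cent of each other and the groups did not overlap. The mean fell by 8.41%, from 17.9 ± 0.138 to 16.4 ± 0.0432 FPKM (log2 change −0.12 ± 0.04, limma adjusted p = 0.0448). This call ended when any 1 library was left out (adjusted p = 0.0801 to 0.104) and with upper quartile scaling (0.0900).

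Rela encodes p65, the subunit with the transactivation domain of the classical dimer. Its levels were 21.7, 20.1 and 20.4 FPKM with PBS and 18.4, 18.1 and 19.2 with exosomes, again without overlap. The mean fell by 10.6%, from 20.7 ± 0.859 to 18.6 ± 0.598 FPKM (−0.15 ± 0.05, limma adjusted p = 0.0311). Without PBS replicate 1, exosome replicate 1 or exosome replicate 2 the adjusted p was 0.124, 0.0774 and 0.0979.

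Nfkb2 encodes p100, which restrains RelB until it is cut to p52 in the non-canonical branch of the pathway. It had the highest mean level of the members in either group, with 25.4, 27.7 and 24.2 FPKM in PBS and 26.5, 27.8 and 29.1 in exosome libraries. These ranges overlapped, at 25.8 ± 1.76 against 27.8 ± 1.26 FPKM (0.11 ± 0.06, limma adjusted p = 0.167), and without PBS replicate 2 the gene was called raised (0.16, adjusted p = 0.0489). The authors' deposited fold for Nfkb2 was 1.01 (adjusted p = 0.974). Exons of Nfkb2 overlap those of Psd, a gene on the opposite strand, and the sources used here do not say whether reads were counted by strand.

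Relb, the partner of p52, was at 6.24, 7.495 and 5.05 FPKM with PBS and 6.07, 5.58 and 6.06 with exosomes. The 3 exosome values fell inside the PBS range (6.26 ± 1.22 against 5.91 ± 0.282 FPKM, −0.06 ± 0.11, limma adjusted p = 0.678). The sign of this difference depended on PBS replicate 2, without which it was 0.06 (adjusted p = 0.586).

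Rel, the fifth gene of the family and best known from lymphocytes, was detected at 1.96 ± 0.171 and 2.21 ± 0.207 FPKM with PBS and exosomes (0.11 ± 0.08, limma adjusted p = 0.248). Because FPKM is scaled to length, the genes can be set beside each other, provided that the values, whose unit was inferred, are FPKM. Nfkb2 made up 36.4% ± 1.18 of the summed FPKM of Nfkb1, Nfkb2, Rela and Relb with PBS, Rela 29.4% ± 1.67, Nfkb1 25.4% ± 1.13 and Relb 8.82% ± 1.39. With exosomes the shares were 40.5% ± 0.942, 27.0% ± 0.337, 23.9% ± 0.582 and 8.60% ± 0.392. The summed FPKM of the 4 genes itself was 70.7 ± 2.80 against 68.7 ± 1.87.

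The non-canonical genes Nfkb2 and Relb together took 44.5%, 48.0% and 43.2% of that sum with PBS and 48.4%, 49.2% and 49.6% with exosomes. All 3 exosome shares were above the PBS shares, by 3.82 percentage points in the mean, although PBS replicate 2 came within a point of the lowest of them. With Rel added to the sum the difference was 3.51 points. The FPKM ratio of Nfkb2 to Nfkb1 was 1.44 ± 0.1002 with PBS and 1.69 ± 0.0734 with exosomes. No test was made on these sums and ratios.

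**Figure D2:**
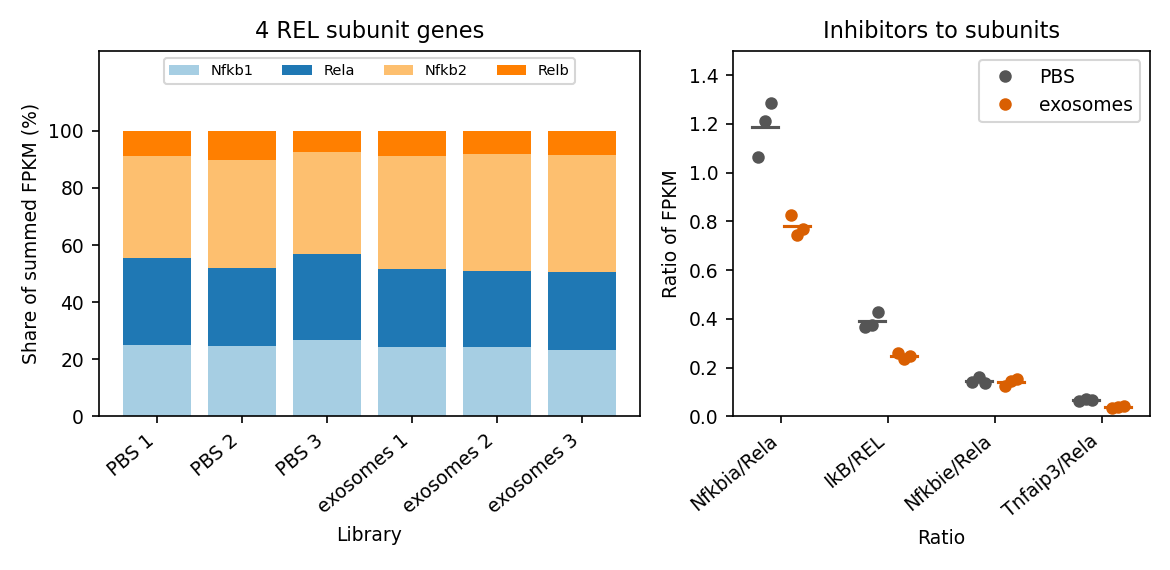
Left, share of each subunit gene in the summed FPKM of Nfkb1, Rela, Nfkb2 and Relb in each of the 6 libraries (stacked to 100%). Right, FPKM ratios per library with group means as bars, where IkB/REL is Nfkbia plus Nfkbie over the 4 subunit genes: Nfkbia to Rela is above 1 in all PBS libraries and below 1 in all exosome libraries, and Nfkbie to Rela overlaps.

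The inhibitors differed in how they moved. Nfkbia encodes IkB-alpha, the fast-turning inhibitor that NF-kB itself induces and that carries dimers back out of the nucleus. Its levels were 23.1, 24.4 and 26.3 FPKM in the PBS libraries and 15.2, 13.5 and 14.8 in the exosome libraries. Every exosome library was far below every PBS library. The mean fell by 41.1%, from 24.6 ± 1.60 to 14.5 ± 0.891 FPKM (log2 change −0.73 ± 0.06, limma adjusted p = 2.85e-05), and the call held under all alternatives tried (adjusted p = 1.72e-05 to 0.000914 over the limma fits). The authors' deposited table gives a fold of 0.556 for Nfkbia (adjusted p = 2.86e-20), on mean normalized counts of 949 and 528. In order of level Nfkbia stood just under Nfkb2 with PBS, with overlapping ranges, and above Rela and Nfkb1; with exosomes it stood below all 3, without overlap.

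Nfkbie encodes IkB-epsilon, a slower inhibitor of the same kind. It was listed at 3.03, 3.26 and 2.82 FPKM with PBS and 2.33, 2.63 and 2.92 with exosomes, with 1 exosome value inside the PBS range (3.04 ± 0.224 against 2.63 ± 0.299, −0.16 ± 0.08, limma adjusted p = 0.132). Nfkbib, the gene of IkB-beta, fell from 6.68 ± 0.938 to 5.43 ± 0.503 FPKM (−0.25 ± 0.09, limma adjusted p = 0.0489), with overlapping groups; the call ended without the filter on low values (0.112), under upper quartile scaling (0.0559) and after leaving out PBS replicate 1 (0.171), PBS replicate 3 (0.0666), exosome replicate 2 (0.158) or exosome replicate 3 (0.108).

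The FPKM of Nfkbia relative to Rela was 1.06, 1.21 and 1.29 with PBS and 0.825, 0.745 and 0.768 with exosomes. By these values Nfkbia stood above Rela in each PBS library and below it in each exosome library. Which of these genes is higher within a library rests on the values being FPKM, a unit that was inferred. Nfkbia and Nfkbie together were 0.391 ± 0.0336 of the summed subunit genes with PBS and 0.249 ± 0.0112 with exosomes. Nfkbie relative to Rela, by contrast, was 0.147 ± 0.0136 and 0.141 ± 0.0132, and its values overlapped.

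Tnfaip3 encodes A20, a ubiquitin-editing enzyme that shuts off signalling from TNF and Toll-like receptors and is itself an NF-kB target. It was at 1.35, 1.46 and 1.37 FPKM in PBS libraries and at 0.602, 0.704 and 0.789 in exosome libraries. The groups were well apart at these low levels, and mean normalized counts in the authors' deposited table were 192 and 91.8. The mean fell by 49.8% (1.39 ± 0.0571 to 0.698 ± 0.0938 FPKM), which is −0.50 ± 0.07 on the log2(FPKM + 1) scale (limma adjusted p = 0.000613). Tnfaip3 entered this test only through its PBS values, so the adjusted p is a description. In the limma fit without the filter on low values it was 0.00239. With a pseudocount of 0.1 the change was −0.91, and in the authors' deposited table the log2 fold is −1.07 (adjusted p = 2.21e-09).

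**Figure D3:**
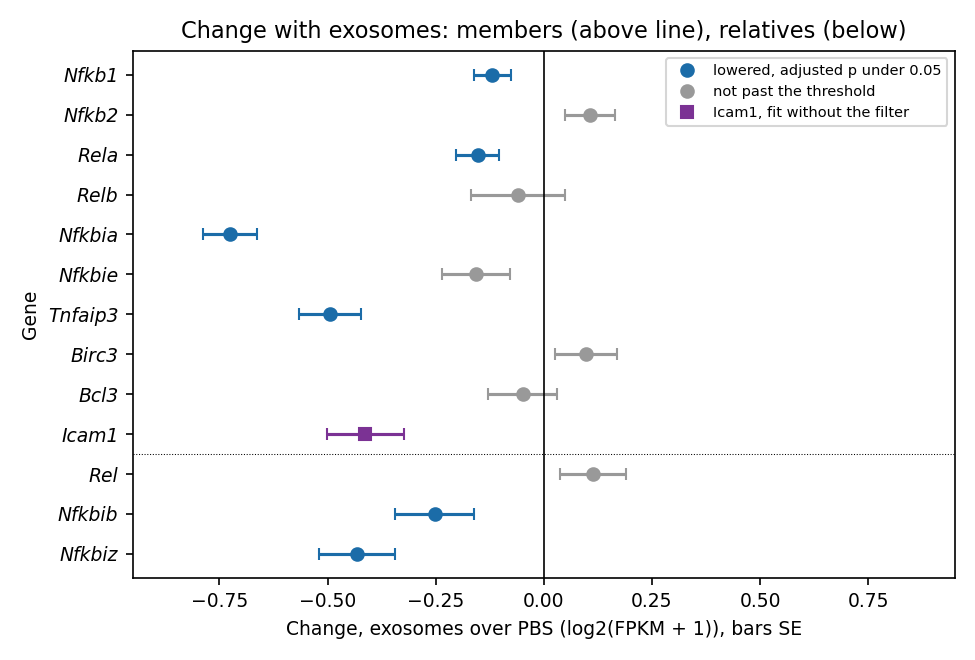
Change with exosomes over PBS on the log2(FPKM + 1) scale for the 10 members and, below the dotted line, Rel, Nfkbib and Nfkbiz; bars are SE from limma, n = 3 libraries per group, and the x axis is in log2 units. Nfkbia at −0.73 and Tnfaip3 at −0.50 lie farthest from 0 among the tested members; Icam1 (square) is from the fit without the filter on low values.

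The last regulators, Birc3 and Bcl3, did not pass the test. Birc3 encodes cIAP2, a ubiquitin ligase of the TNF receptor complex that protects from cell death and is a classical NF-kB target. It was at 2.23, 2.19 and 2.12 FPKM with PBS and 2.55, 2.14 and 2.54 with exosomes, where replicate 2 lay inside the PBS range (2.18 ± 0.0549 against 2.41 ± 0.236, 0.10 ± 0.07, limma adjusted p = 0.289). Bcl3 encodes a nuclear IkB protein that works with p50 and p52 dimers at promoters. Its values were 6.76, 6.499 and 6.89 FPKM with PBS and 7.499, 5.95 and 6.02 with exosomes, so that exosome replicate 1 was the highest and the other exosome libraries the lowest of all (6.72 ± 0.199 against 6.49 ± 0.875, −0.05 ± 0.08, limma adjusted p = 0.639). Exons of Bcl3 overlap an antisense gene, Gm16175.

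Of the other nuclear IkB genes, Nfkbiz, which encodes IkB-zeta and is needed for a second wave of NF-kB targets, fell from 8.72 ± 0.936 to 6.21 ± 0.690 FPKM (−0.43 ± 0.09, limma adjusted p = 0.00364). Nfkbid, the gene of IkBNS, was under 0.1 FPKM in every library and was not tested.

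Icam1 encodes an adhesion molecule that leukocytes bind and is a standard NF-kB target in stromal and endothelial cells. It was listed at 0.466, 0.583 and 0.233 FPKM with PBS and at 0.0362, 0.0470 and 0.118 with exosomes. All 6 values were below the 1 FPKM needed for the test, and the highest exosome value was under the lowest PBS value. Mean FPKM was 6.39-fold lower with exosomes (0.0669 ± 0.0442 against 0.427 ± 0.178). This fold was 10.3 without exosome replicate 3 and between 5.19 and 7.84 without any of the other libraries in turn. In the authors' deposited table its mean normalized count was 26.8 with PBS and 4.14 with exosomes, a fold of 0.154 (adjusted p = 0.00121). In a limma fit without the filter the change was −0.41 ± 0.09 (adjusted p = 0.0174) with a pseudocount of 1 and −1.63 with 0.1. That call ended without PBS replicate 1 (0.0683), exosome replicate 1 (0.0661) or exosome replicate 2 (0.0664). An antisense gene, Gm47079, overlaps exons of Icam1.

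Promoters are shown for 3 members because they hold matches to the kappa-B consensus, the decamer that NF-kB dimers bind, and because their transcripts behaved differently: Nfkbia and Tnfaip3 fell, and Nfkb2 did not pass the test. The decamer opens with a run of G and a purine and closes with pyrimidines and a run of C. Windows of 300 bases, 250 before to 50 after a start site, came from RefSeq on GRCm38.p6, a build other than the mm9 of the deposited values. Both strands were searched, and capitals mark a match, with overlapping matches merged. The Nfkbia window lies at chr12:55492598-55492897 (minus strand), that of Tnfaip3 at chr10:19015361-19015660 (minus strand) and the first of 3 windows of Nfkb2 at chr19:46304487-46304786 (plus strand).
Nfkbia: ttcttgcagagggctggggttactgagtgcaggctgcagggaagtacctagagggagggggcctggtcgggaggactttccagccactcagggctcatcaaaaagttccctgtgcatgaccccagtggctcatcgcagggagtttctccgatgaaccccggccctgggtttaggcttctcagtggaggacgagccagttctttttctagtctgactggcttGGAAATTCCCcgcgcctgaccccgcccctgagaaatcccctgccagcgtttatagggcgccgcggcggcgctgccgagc
Tnfaip3: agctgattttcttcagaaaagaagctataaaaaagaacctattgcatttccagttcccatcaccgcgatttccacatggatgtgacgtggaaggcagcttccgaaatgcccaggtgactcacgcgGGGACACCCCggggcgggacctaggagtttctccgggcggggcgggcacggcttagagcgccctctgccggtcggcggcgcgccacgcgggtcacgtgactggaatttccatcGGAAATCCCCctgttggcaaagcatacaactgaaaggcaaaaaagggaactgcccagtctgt
Nfkb2: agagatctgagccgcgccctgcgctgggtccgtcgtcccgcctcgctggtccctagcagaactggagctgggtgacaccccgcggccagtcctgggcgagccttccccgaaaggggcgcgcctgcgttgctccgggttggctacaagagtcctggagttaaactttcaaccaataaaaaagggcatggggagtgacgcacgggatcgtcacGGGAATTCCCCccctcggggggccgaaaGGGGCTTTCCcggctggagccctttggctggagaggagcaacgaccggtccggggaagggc

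In the Nfkbia window the match spans bases −29 to −20 from the start site. The Tnfaip3 window holds matches at −125 to −116 and −12 to −3, and that of Nfkb2 a merged match from −39 to −29 and another at −11 to −2. The further windows of Nfkb2, which begin at bases 46305445 and 46305680 of the chromosome, overlap. Each holds a match, but that at 11 to 20 in the former is the same site as that at −225 to −216 in the latter. RefSeq windows were found for 8 of the 10 members, 11 windows in all; Nfkb1 and Relb had none. Matches were present in 7 of the 11 windows, belonging to Bcl3, Nfkb2, Nfkbia, Nfkbie and Tnfaip3, with the shared Nfkb2 site counted in both of its windows. Over all 32851 windows of the same length 8.5% held a match. The 5 genes with a match include 2 that were lowered and 3 that did not pass the test, and the windows of Rela, Birc3 and Icam1 held none, which says only that these letters are not in those windows. A match is a description of the sequence and not a measured binding site.

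**Figure D4:**
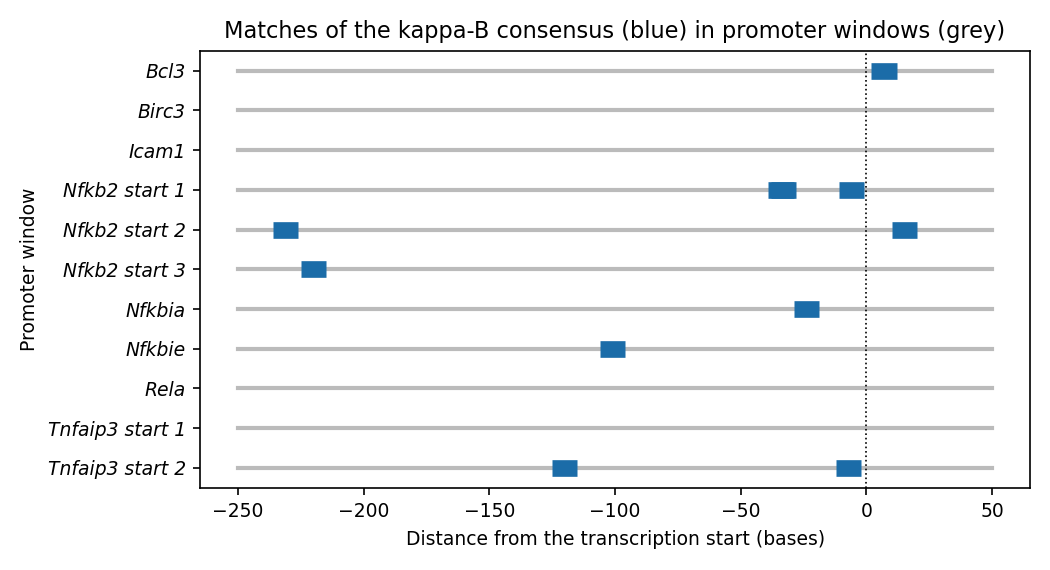
Position of kappa-B consensus matches (blue, drawn at their length of 10 bases) in 11 promoter windows of 8 members (grey lines), by distance in bases from the transcription start. Starts of 1 gene are numbered by their genome position. Nfkb2 has a match in each of 3 windows and Tnfaip3 in 1 of 2. The windows of Nfkb2 starts 2 and 3 overlap and share 1 site.

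Upstream of NF-kB, receptor genes for TNF (Tnfrsf1a, Tnfrsf1b), interleukin-1 and endotoxin fell with exosomes. The Toll-like receptor genes Tlr2 and Tlr3 did not pass (log2 change 0.19 and 0.15, limma adjusted p = 0.105 and 0.0832). Of 31 genes for receptors, adaptors and kinases 29 were tested, 10 were lowered, 2 raised and 17 did not pass, beside 18.4% lowered and 25.4% raised among all tested genes. The median change of the list was −0.08. Like the members, the list was chosen with earlier results of these data known, so these counts are a description. Tnfrsf12a, the receptor of the cytokine TWEAK, fell from 103 ± 9.52 to 40.9 ± 4.01 FPKM (−1.32 ± 0.08, limma adjusted p = 6.51e-06). Tlr4, the endotoxin receptor, fell from 14.97 ± 0.866 to 8.04 ± 0.456. Il1rap and Il1r1, the chains of the interleukin-1 receptor, fell from 19.6 ± 1.08 to 10.5 ± 0.721 and from 48.1 ± 3.04 to 35.3 ± 1.16 FPKM.

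The 2 raised genes were Birc2 and Traf5. Birc2, which encodes cIAP1, the close relative of the Birc3 product, rose from 6.03 ± 0.0594 to 7.16 ± 0.242 FPKM (0.21 ± 0.05, limma adjusted p = 0.00839). Traf5, an adaptor of TNF family receptors, rose from 6.12 ± 0.306 to 7.44 ± 0.813 (adjusted p = 0.0262), a call that ended with median ratio scaling (0.05002), without the filter on low values (0.0624), in the authors' deposited table (0.147) and without PBS replicate 1 (0.0519), PBS replicate 2 (0.0709), exosome replicate 1 (0.0667) or exosome replicate 3 (0.0943).

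The linear ubiquitin ligase, which builds the chains that recruit the IkB kinase, has 3 genes. Rbck1 rose from 16.1 ± 0.145 to 18.01 ± 0.193 FPKM (0.15 ± 0.04, limma adjusted p = 0.0164); this ended with median ratio scaling (0.0612), without PBS replicate 1 (0.0590) and in the authors' deposited table (0.653). Rnf31, the catalytic subunit, was 4.11 ± 0.262 with PBS and 4.80 ± 0.416 with exosomes (adjusted p = 0.0655), and was called raised with upper quartile scaling (0.0449) and without exosome replicate 3 (0.0345). Sharpin was 11.5 ± 0.741 and 12.6 ± 0.643 FPKM (adjusted p = 0.107).

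Of 16 other negative regulators 14 were tested, 3 were raised, 2 lowered and 9 did not pass (median change 0.01). These shares lie near the 25.4% raised and 18.4% lowered among all tested genes. Pdlim2, a ligase that acts on p65 within the nucleus, rose from 11.9 ± 0.683 to 20.7 ± 1.91 FPKM (0.75 ± 0.07, limma adjusted p = 5.65e-05). Nkiras2, a Ras-like protein that slows the degradation of IkB, rose from 7.49 ± 0.922 to 10.5 ± 0.214, and Tnip1, a partner of A20, from 6.57 ± 0.516 to 8.43 ± 0.115. Zc3h12a, the ribonuclease regnase-1, which destroys cytokine transcripts and is induced by NF-kB, fell from 3.27 ± 0.309 to 1.93 ± 0.1 (−0.54 ± 0.07, adjusted p = 0.000392). Tollip, an adaptor that dampens interleukin-1 and Toll-like signalling, fell from 15.4 ± 0.420 to 13.1 ± 0.439.

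Of 40 other target genes of NF-kB 27 were tested, 16 were lowered, 5 raised and 6 did not pass, beside 18.4% lowered and 25.4% raised among all tested genes. The median change was −0.43 against 0.04 over all tested genes. This list was chosen with earlier results of these data known, so its counts and median are a description and not independent evidence. Of the 27, 2 entered the test only through the group where they are high. The 13 genes left out include 5 that were listed at 0 in all libraries. Several of the targets are also induced through other factors, and 5 of the 40 also stand in one of the lists above.

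Ier3, an early stress-induced survival gene, fell from 119 ± 22.5 to 17.8 ± 1.80 FPKM (−2.66 ± 0.13, limma adjusted p = 5.60e-06). Ptgs2, an enzyme of prostaglandin synthesis, fell from 124 ± 18.7 to 24.5 ± 1.20 (−2.28 ± 0.10). Cxcl1, which encodes a neutrophil attractant, was at 40.2 ± 4.86 FPKM with PBS and fell to 10.2 ± 0.545 with exosomes. The changes of these 3 genes were larger than that of any tested member.

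Among the raised targets, Ccl5 and Cxcl10, chemokine genes that interferon also induces, were at 4.36 ± 0.328 and 1.35 ± 0.209 FPKM with exosomes against 2.25 ± 0.731 and 0.720 ± 0.140 with PBS (limma adjusted p = 0.00361 and 0.00362). The call for Cxcl10 was absent from the authors' deposited table (adjusted p = 0.118), and Cxcl10 was tested only through its exosome values. For Ccl5 the adjusted p in that deposited table was 0.0456. Mean normalized counts with PBS and exosomes were low, at 16.6 and 32.5 for Ccl5 and 14.9 and 27.0 for Cxcl10. Tnip1 and Birc2 stand in this list too.

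Vcam1, another leukocyte adhesion molecule of the list, was named after its values were seen, to set beside Icam1. It was at 35.5, 42.0 and 30.3 FPKM with PBS and 37.5, 39.8 and 41.8 with exosomes, with overlap (0.15 ± 0.10, limma adjusted p = 0.266), and was called raised without PBS replicate 2 (0.0180).

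**Figure D5:**
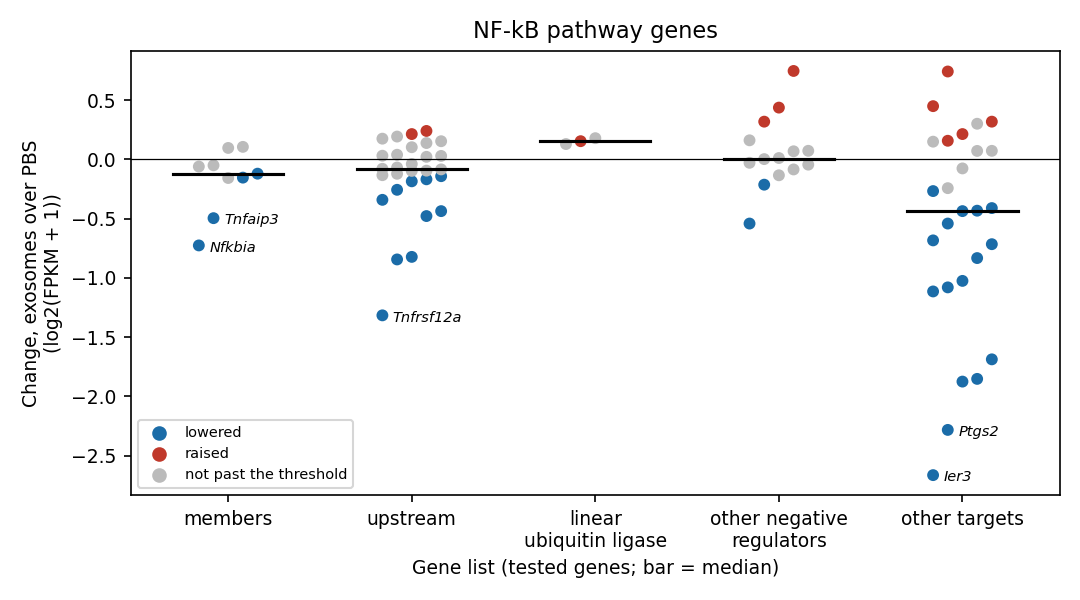
Change with exosomes over PBS (log2(FPKM + 1)) of each tested gene in 5 lists, coloured by call (blue lowered, red raised, grey not past the threshold) with the list median as a black bar. The members' median is −0.12 and that of the other targets −0.43, with Ier3 at −2.66 as the lowest point.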

How the data were processed

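The authors deposited 1 table with a value per gene and library, read here as FPKM. The headers say only expression; FPKM was inferred from Cufflinks among the submitters' processing notes and from unequal column sums. For the authors' steps, the submitters' processing notes also name Trimmomatic, HISAT2, Bowtie2, StringTie, HTSeq, SAMtools and DESeq and the build mm9, without roles or order. Per the file headers the table also holds, from the authors, a normalized count signal averaged per group. Their comparison is deposited as a linear fold (ratio) with a raw and an adjusted p-value. Per the labels' protocols the library kit (TruSeq Stranded mRNA) marks strand; no source used here says if counting took strand into account. The deposited log2 fold column holds error text in some rows and was not used, so log2 folds were computed from the linear fold. Counts per library were not used here, so no count model was fitted. Libraries were matched through sample numbers in the labels; 0 pairs were identical, and 27 gene names turned into dates were repaired by Entrez identifier.

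Genes that reached 1 FPKM in 3 libraries or more were tested on log2(FPKM + 1) with limma 3.58.1 in R 4.3.3 (two-sided, with variance trend and robust estimation and no covariate, Benjamini-Hochberg over all genes tested). The procedure was tested on simulated data, in which a small part of the genes was shifted, none of them weakly expressed. It therefore did not check whether changes of weakly expressed genes such as Tnfaip3 and Birc3 are found. Alternatives were other pseudocounts, filters, scalings, a block, plain variances, each library left out, and the authors' deposited comparison. Members and lists were chosen with earlier results of these data known. Besides the members, the 4 other REL and IkB genes and the 3 ligase genes, each list's named genes are up to 4 raised and 4 lowered of smallest p. Tnfrsf1a, Tnfrsf1b, Tlr2, Tlr3 and Vcam1 are named outside this rule. Some genes of the lists are counted but not reported here by name. Exon overlaps came from GENCODE M21.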

Additional observations from a re-analysis of the deposited data

How the results depend on the processing

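The call of Nfkbia held under every alternative, and that of Tnfaip3 under every alternative in which it was tested. Most of these kept the filter that Tnfaip3 passed only through its PBS values, so for Tnfaip3 this is a description. Of 35 genes examined singly, 0 reversed a call. Members lowered, 4 in the reported fit, numbered 2 to 3 when 1 library was left out, and members raised 0 to 1. With the replicate block 2 members were lowered, with adjusted p of 0.109 for Nfkb1 and 0.0624 for Rela; the Rbck1 call also ended (0.0510). Deviations of same-numbered libraries from their group means correlated at −0.12, −0.021 and −0.295. Those of differently numbered libraries ranged from −0.194 (PBS replicate 2, exosome replicate 1) to 0.285 (PBS replicate 3, exosome replicate 1). With 3 libraries per group such deviations depend on each other, so they cannot show whether libraries were paired. Upstream genes raised, 2 in the reported fit, numbered 1 without the filter, 1 with median ratio scaling, 1 in the authors' deposited comparison and 1 to 3 with a library left out. Other targets raised, 5 in the reported fit, numbered 3 with at least 5 FPKM and 3 in the authors' deposited comparison. Without trend and robust estimation the adjusted p was 0.0571 for Nfkb1 and 0.0559 for Nfkbib. Leaving out a library for the Icam1 fold and for its fit without the filter, and its pseudocount of 0.1, were chosen after seeing the data. Across these 35 genes 457 of 496 alternative values kept direction and side of the threshold, or missed it as before. Depth limits Icam1, which had 4.14 mean normalized counts with exosomes, and also Ccl5 and Cxcl10, which had 16.6 and 14.9 with PBS.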
